A study of Homo sapiens with 12 samples.

Results

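Drug-treated cells of 2 human melanoma lines were compared with each other: 3 arrays of A375 under vemurafenib were set against 3 arrays of A2058 under vemurafenib. These are 6 of the 12 arrays of the series, chosen by their line and agent labels, and the other 6, 3 of each line in DMSO, served to show which differences were already there without the drug. Vemurafenib blocks the kinase activity of mutant BRAF and is dissolved in DMSO, which controls received alone. Both lines are established cell lines and are labelled BRAF V600E, so the controls carry the mutation too. The labels give vemurafenib at 1 µM for 72 h, renewed every 24 h, and the same volume of DMSO for controls. The text on treatment stands on every sample but speaks of A375p alone, a name that some A375 labels also use, so the dose and time of A2058 rest on that shared text. Expression was measured as log2 values for 18404 named genes on Affymetrix Human Gene 1.0 ST arrays. Line and any batch that coincides with line cannot be told apart in either condition. Nothing in the labels says that the 3 arrays of a group came from separate cultures, so p-values measure the spread between these arrays, which may be technical.

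The V600E mutation keeps the BRAF kinase active and drives the ERK kinase cascade, which maintains proliferation genes and a set of its own feedback inhibitors. Blocking it in melanoma cells is known to lower that output, to arrest part of the cells in G1 and to move them between a pigmented, MITF-dependent state and states that resemble the neural crest or mesenchyme. Melanoma cells can also switch on interferon-stimulated genes, a programme of antiviral and antigen presentation genes, many of which carry an interferon-stimulated response element near their start.

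A gap is the mean log2 value of A375 minus that of A2058, so positive gaps are higher in A375. Each is given with its standard error (SE) from 1 limma fit of all 12 arrays, 3 arrays a group. A gap was called at a Benjamini-Hochberg adjusted p under 0.05 over all genes, and the median SE of a gap under vemurafenib was 0.0583. Replicates correlated at r = 0.9978 to 0.9989 across genes in 3 of the 4 groups. Replicate 1 of A375 vemurafenib stood apart, with r = 0.9939 and 0.9941 to replicates 2 and 3 against 0.9982 between those, and the median SD of a gene was 0.0866 in that group against 0.0461 to 0.0591 in the others. Without that array 9679 genes were called in place of 8636, and the difference between the gaps was called for 6638 in place of 5434.

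Markers of the melanocyte lineage were set beside the label of both lines first. The lineage factor SOX10 had a mean of 9.38 in drug-treated A375 and 9.48 in drug-treated A2058, a gap that was not called (adjusted p = 0.0756, limma). The summed log2 level of 9 lineage markers was 63.6 to 64.1 in A375 and 86.9 to 87.2 in A2058, and 8 of the 9 were called higher in A2058. In drug-treated A375 the pigment markers TYR, PMEL and MLANA lay at means near the 30th percentile of all genes, 4.95, whereas SOX10, MITF and S100B lay well above it. Of 12 blood and immune markers, 3 were called: LYZ and CD68 were higher in A375 and LAPTM5 in A2058, and their sums were 65.6 to 66.3 in A375 and 63.1 to 63.7 in A2058. The defining leukocyte markers PTPRC (means 4.17 and 4.15) and CD3E (4.66 and 4.65) lay below that percentile in both drug-treated lines. Fibroblast markers summed to 61.4 to 62.3 in A375 and 62.9 to 63.4 in A2058, epithelial markers to 57.4 to 59.5 and 56.8 to 57.0, and endothelial markers to 61.5 to 62.4 and 59.6 to 59.9. Of these, 5 of 12 (41.7%), 1 of 11 (9.09%) and 2 of 12 (16.7%) were called, all shares below that of all genes.

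Under vemurafenib the lines differed at 8636 of the 18404 genes (46.9%), 4179 higher in A375 (22.7%) and 4457 higher in A2058 (24.2%). The counts of the gene lists below are to be read beside these shares. The gap was at least 2-fold for 1330 of them (7.23%), of which 635 were higher in A375 (3.45%) and 695 in A2058 (3.78%). The arrays of the lines did not overlap at 9427 genes (51.2%), and at all 1330 with a 2-fold gap. In DMSO 8541 genes were called (46.4%) and 1173 also differed 2-fold (6.37%). The median absolute gap was 0.14 in both conditions, but large gaps were more numerous under the drug. At least 8-fold gaps numbered 132 under vemurafenib and 97 in DMSO, and at least 32-fold gaps 21 and 14. Of the 2-fold gaps, 635 genes had one in both conditions, which is 47.7% of those under vemurafenib and 54.1% of those in DMSO, with the same sign for 622 and the opposite sign for 13. Whether a gap itself differed between the conditions was tested by the difference of the gaps (vemurafenib minus DMSO), which passed for 5434 genes (29.5%), 2416 in the direction of A375 (13.1%) and 3018 in the direction of A2058 (16.4%).

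Each of the 1330 genes was placed by its gap in DMSO. A class other than not distinguished required that the difference of the gaps was called. The gap was reversed for 65 genes (4.89%), meaning that the gap in DMSO was itself called and had the opposite sign, however small it was. Of the rest, it was absent in DMSO for 194 (14.6%), where the 95% interval of the DMSO gap lay within 0.5 log2 on either side of 0. Absent thus means small within these limits. A DMSO gap of the same sign could still be called, as for C1S (0.305), KIT (-0.185) and DCLK1 (-0.25). It was smaller in DMSO for 571 (42.9%) and larger for 143 (10.8%). For 357 (26.8%) the gaps under the drug and in DMSO were not distinguished. The median absolute gap of the absent class was 1.37 under vemurafenib and 0.14 in DMSO. That of the larger class was 1.39 and 2.29. Among the 106 absent genes higher in A375, the mean of A375 lay farther from its own DMSO mean than that of A2058 for 91, whereas among the 88 higher in A2058 it was A375 for 43 and A2058 for 44.

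**Figure D1:**
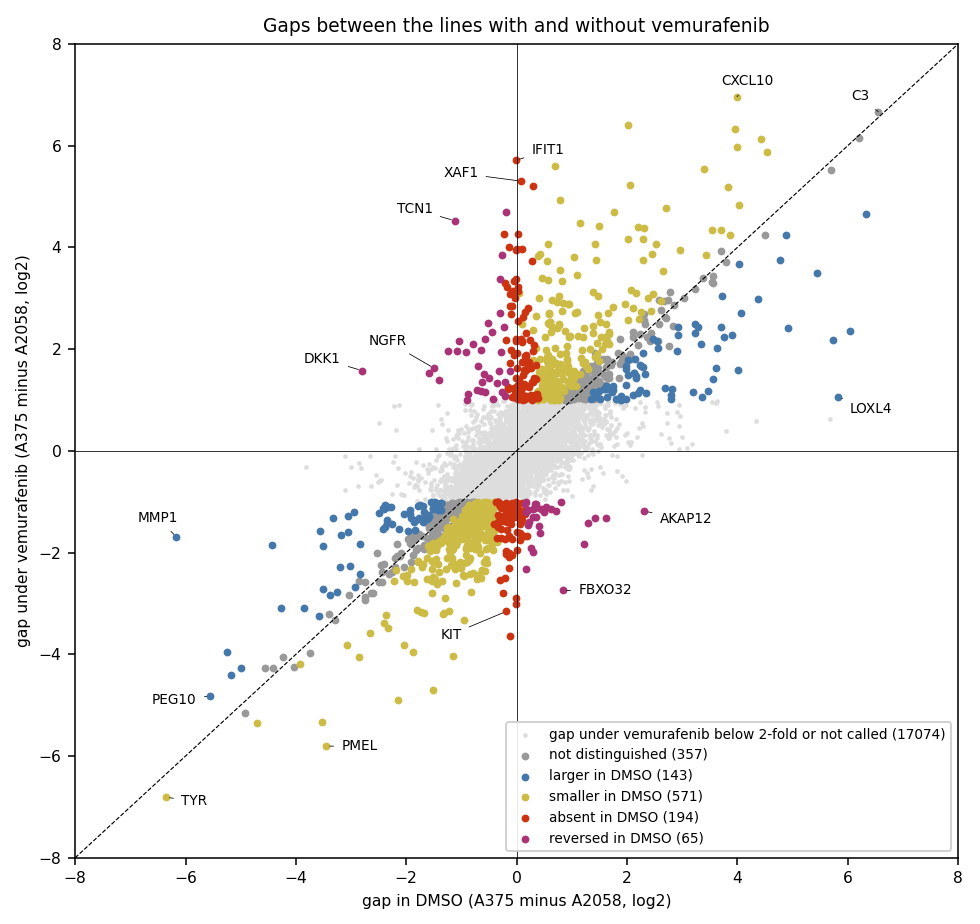
Gap between the lines under vemurafenib (vertical axis, A375 minus A2058, log2) against the gap in DMSO (horizontal axis, log2) for 18404 genes, 1 point a gene, coloured by class for the 1330 genes with a called 2-fold gap under the drug. Points on the dashed line have equal gaps. IFIT1 and XAF1 lie high above a DMSO gap near 0, and TCN1, DKK1 and NGFR lie above 0 under the drug with a DMSO gap below 0.

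The 8 largest gaps toward A375 were those of CXCL10, C3, UBD, TMEM47, GTSF1, CCL2, MGP and FDCSP, and the 8 largest toward A2058 those of TYR, PMEL, SLC24A5, MBP, H3C11, IGFBP5, PEG10 and PDE3A. Their adjusted p-values in limma ran from 2.26e-16 to 2.84e-12. CXCL10, a chemokine that attracts T cells and a common interferon target, read 11.13, 11.36 and 11.30 in drug-treated A375 and 4.40, 4.14 and 4.36 in drug-treated A2058. The lines did not overlap, and the gap of 6.96 (SE 0.0936, 124-fold) compares with 3.99 in DMSO. C3, the central complement component, was 102-fold higher in A375 under the drug and 93.8-fold in DMSO, gaps whose difference of 0.12 was not called (adjusted p = 0.268, limma). The ubiquitin-like protein UBD had a gap of 6.41 (SE 0.153) against 2.01 in DMSO, and GTSF1 had 6.15 against 6.21. Of these 3, UBD had a far wider gap under the drug than in DMSO. Toward A2058, the tyrosinase gene TYR was 112-fold higher under the drug and 82.1-fold in DMSO. MBP, which encodes myelin basic protein, was 40.5-fold and 11.5-fold higher. The histone gene H3C11, which has near-identical copies that share probes, had gaps of -5.16 and -4.93. The insulin-like growth factor binding protein IGFBP5 had gaps of -4.90 and -2.15, and PEG10, an imprinted gene derived from a retroelement, -4.82 and -5.55.

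Genes of the interferon response were higher in drug-treated A375. Of 41 measured interferon-stimulated genes, 40 were called higher in A375 and none in A2058, and 36 had a 2-fold gap. The median gap was 2.81 under vemurafenib and 0.03 in DMSO, against -0.008 and -0.007 over all genes. The difference of the gaps was called for 39 of 41, all toward A375. By class 18 were absent in DMSO, 13 smaller and 5 reversed. The exception was HERC5, a ligase that attaches ISG15, with a gap of 0.09 (adjusted p = 0.426, limma), and without replicate 1 of A375 vemurafenib all 41 were called. The median level of the list was 8.96 in drug-treated A375, 5.79 in drug-treated A2058, 5.90 in A375 with DMSO and 5.80 in A2058 with DMSO.

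The upstream sequences of IFIT1 and IFI44L are shown because these genes had large gaps under the drug. In DMSO the gap was absent for IFIT1 and, for IFI44L, reversed but small (-0.19). They cover the 170 bases before the RefSeq start site on GRCh38.p14, at chr10:89392453-89392622 and chr1:78620278-78620447, both on the plus strand. Capitals mark each match to the interferon-stimulated response element, searched on both strands as GAAA, any 2 bases and again GAAA.

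IFIT1: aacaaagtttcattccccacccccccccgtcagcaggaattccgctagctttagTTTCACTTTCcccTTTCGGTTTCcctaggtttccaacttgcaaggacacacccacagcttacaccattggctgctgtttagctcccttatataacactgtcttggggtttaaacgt
IFI44L: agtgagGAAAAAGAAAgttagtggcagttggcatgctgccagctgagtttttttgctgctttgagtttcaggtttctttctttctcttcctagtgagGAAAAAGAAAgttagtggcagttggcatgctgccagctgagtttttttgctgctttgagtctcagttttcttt

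IFIT1 holds 2 matches side by side on the opposite strand, and IFI44L holds 2 identical matches within a repeated stretch. In the window from 250 bases before to 50 after the start, the element was found in 22 of the 33 interferon-stimulated genes with a RefSeq promoter (66.7%). Over all genes tested with a promoter it was found in 433 of 14230 (3.04%). Among 2-fold gaps it was found in 54 of 487 promoters of genes higher in A375 (11.1%) and 13 of 541 higher in A2058 (2.4%). For gaps absent in DMSO it was found in 18 of 88 (20.5%) and 3 of 73 (4.11%). These matches describe letters in a window and not bound sites.

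IFIT1, which binds viral RNA that lacks a host cap mark, read 10.62, 10.61 and 10.62 in drug-treated A375 and 4.85, 4.88 and 4.99 in drug-treated A2058. In DMSO it read 4.64, 4.65 and 4.56 in A375 and 4.59, 4.54 and 4.76 in A2058. Only the drug-treated A375 arrays were high, and the other 3 groups lay at the low end of the scale. The gap was 5.71 (SE 0.0574, 52.4-fold, adjusted p = 1.25e-15, limma) under vemurafenib and -0.01 (adjusted p = 0.889) in DMSO. OAS2, an enzyme that makes the messenger activating RNase L, read 10.81, 10.94 and 10.94 in A375 against 5.35, 5.27 and 5.23 in A2058 under the drug. Its DMSO arrays were 5.93, 5.88 and 5.90 against 5.17, 5.24 and 5.19, so the lines were apart in both conditions, by 0.70 in DMSO and 5.61 under vemurafenib. XAF1, a pro-apoptotic interferon target, had gaps of 5.30 and 0.08. IFI44L had gaps of 4.69 and -0.19, and the antiviral enzyme RSAD2 of 4.26 and -0.23.

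Of 21 measured interferon receptors, Janus kinases and nucleic acid sensors, 11 were called higher in A375 and 5 in A2058, with a median gap of 0.25 against 0.28 in DMSO. The RNA sensor regulator DHX58 (3.40 under the drug, 0.46 in DMSO), the double-stranded RNA receptor TLR3 (2.66 and 0.34) and the transcription factor IRF1 (1.56 and 1.05) had the widest gaps toward A375. The cytosolic DNA sensor CGAS (-1.43 and -2.25) and the receptor chains IFNGR2 (-0.56 and 0.12) and IFNAR2 (-0.53 and -0.77) were higher in A2058. The interferon genes in this list, IFNB1 (gap 0.00, adjusted p = 0.987, limma) and IFNL1 (-0.03, adjusted p = 0.822), were not called, and their drug-treated arrays lay at 4.04 to 4.12 and 5.17 to 5.40.

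Antigen presentation genes followed the same direction. In the class I pathway 10 of 12 measured genes were called higher in A375, with a median gap of 0.96 against 0.02 in DMSO, and the difference of the gaps was called toward A375 for all 12. TAP1, part of the peptide transporter, read 10.03, 10.18 and 10.10 in drug-treated A375 and 8.49, 8.51 and 8.48 in drug-treated A2058. Its DMSO values were 8.52, 8.52 and 8.53 in A375 and 8.33, 8.38 and 8.31 in A2058. The lines did not overlap in either condition, and the gap was 1.61 (SE 0.0429) under vemurafenib and 0.18 in DMSO. The immunoproteasome subunit PSMB9 (1.74 and 0.09) and the peptide-trimming enzyme ERAP1 (2.26 and 1.11) lay on the same side. ERAP2, its paralogue, was the 1 member called higher in A2058, with gaps of -2.77 under the drug and -3.26 in DMSO. Its difference of the gaps (0.48, adjusted p = 0.0397, limma) lost its call with quantile normalization (adjusted p = 0.0536), with median centring (0.0534) and in 8 fits that left out 1 array. In the window described above, the interferon element was found in 8 of 11 promoters of the class I genes (72.7%).

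In the class II pathway 8 of 10 genes were called higher in A375, with a median gap of 1.23 against -0.21 in DMSO, and again all 10 differences of the gaps were called toward A375. HLA-DMB, which helps load peptide onto class II molecules, read 9.57, 9.71 and 9.60 in drug-treated A375 and 7.57, 7.58 and 7.43 in drug-treated A2058. In DMSO A2058 was the higher line, at 8.92, 9.01 and 8.95 against 8.17, 8.24 and 8.13. The gap turned from -0.78 to 2.10 (SE 0.0559). The protease CTSS had gaps of 2.23 and 0.52, and HLA-DOA of 2.16 and 0.10. HLA-DQA1 and HLA-DQB1 were not called. Probes of HLA genes can read related loci and the lines' own alleles, so a level cannot be assigned to 1 HLA gene with certainty.

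Of 13 complement genes 8 were called higher in A375 and 2 in A2058 (median gap 0.43, and 0.03 in DMSO). C1S, a protease that starts the classical cascade, read 10.28, 10.41 and 10.39 in drug-treated A375 and 5.17, 5.14 and 5.16 in drug-treated A2058. The gap of 5.20 (SE 0.0519) compares with 0.30 in DMSO, where all 6 arrays lay between 4.71 and 5.15. In DMSO the lines did not overlap either, at 5.07, 5.15 and 4.99 in A375 and 4.76, 4.83 and 4.71 in A2058. C1R, its partner protease, had gaps of 2.75 and 0.82. The complement regulator CD55 (-1.33 and -0.10) and the terminal component C5 (-1.14 and -1.08) were higher in A2058.

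**Figure D2:**
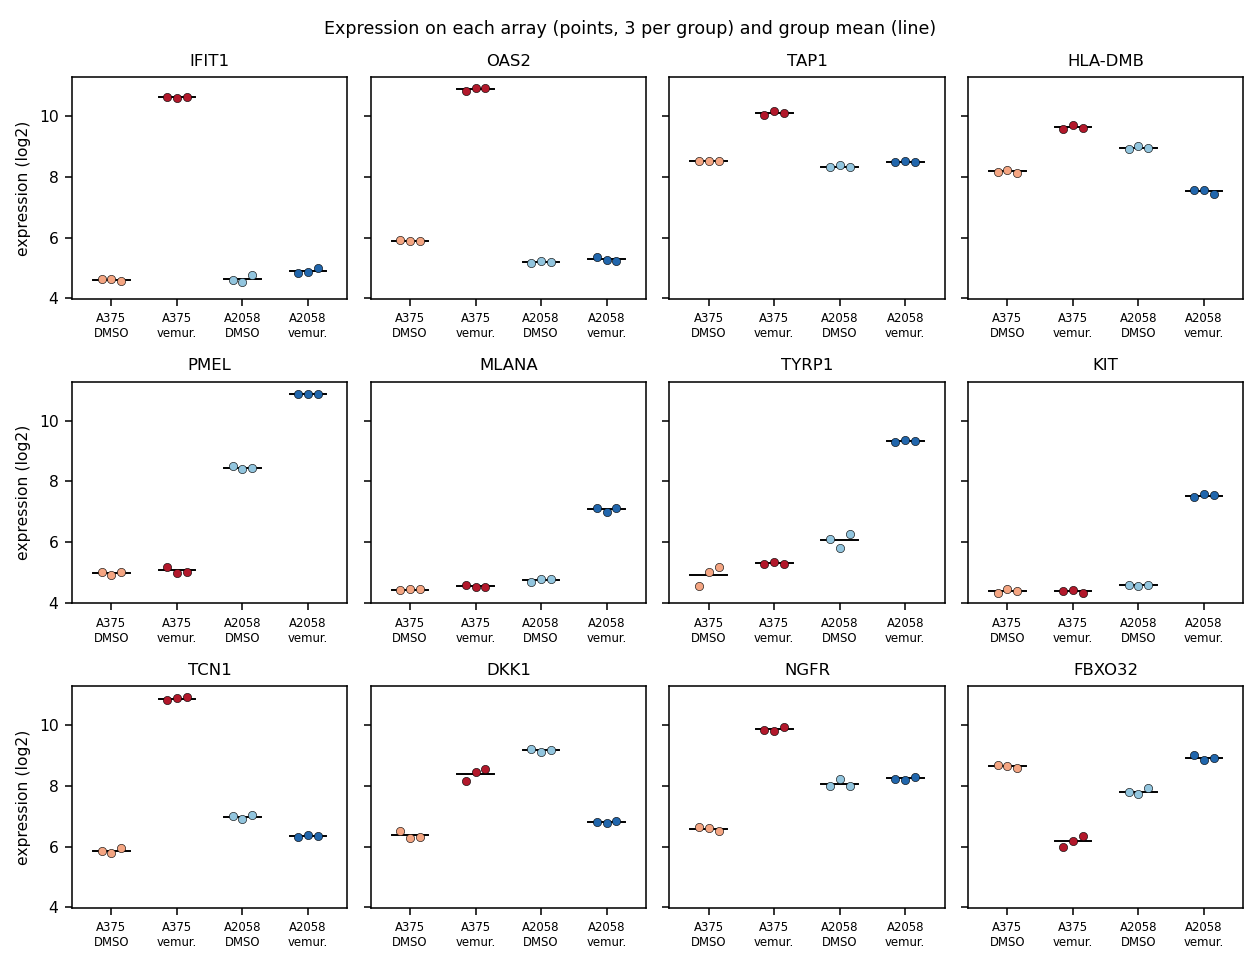
Deposited log2 expression (vertical axes) of 12 genes in each of the 12 arrays, by group, as points, with group means as horizontal lines. IFIT1 and OAS2 are high in the 3 drug-treated A375 arrays alone, PMEL and TYRP1 are highest in drug-treated A2058, and the order of the lines for TCN1, DKK1, NGFR and FBXO32 turns between DMSO and vemurafenib.

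Cytokine genes were also higher in A375, but here the median gap was nearly as wide in DMSO. Of 29 measured cytokines, chemokines and NF-kappaB targets, 19 were called higher in A375 and 1, IL6, in A2058 (-0.34). The median gap was 1.11 under vemurafenib and 0.97 in DMSO, and the difference of the gaps was called toward A375 for 10 and toward A2058 for 8. Of the 15 with a 2-fold gap under the drug, 10 were smaller in DMSO, 2 larger and 3 not distinguished. The monocyte chemokine CCL2 read 11.63, 11.83 and 11.71 in drug-treated A375 and 5.72, 5.72 and 5.36 in drug-treated A2058, and its gap was 6.12 under the drug and 4.42 in DMSO. IL24, a cytokine of the interleukin-10 family, had gaps of 5.55 and 3.40. IL1A went the other way, from a gap of 5.72 in DMSO to 2.17 under the drug. Of the blood and immune markers, LYZ and CD68 were higher in A375, by 1.77 and 1.63, and LAPTM5 was higher in A2058. The median gap of these markers was 0.02, and PTPRC and CD3E were near the low end in both lines.

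Pigment genes were the counterpart in A2058. Of 18 measured genes of pigment synthesis and the melanosome, 15 were called higher in A2058 and 2, MC1R and SYTL5, in A375. The median gap was -1.16 under vemurafenib and -0.60 in DMSO, and the difference of the gaps was called toward A2058 for 14 and toward A375 for 2. All 9 members with a 2-fold gap toward A2058 were narrower in DMSO, 8 of them in the smaller class and 1, MLANA, in the absent class. For TYR this rests on a difference of -0.45 (adjusted p = 0.0428, limma) that lost its call in 10 of the fits that left out 1 array. MITF, the transcription factor that drives this programme, had gaps of -1.43 in both conditions, a difference of 0.00 (adjusted p = 0.987, limma). The MITF values were 9.07, 9.05 and 9.11 in drug-treated A375 against 10.50, 10.51 and 10.50 in drug-treated A2058, and 8.29, 8.40 and 8.34 against 9.68, 9.80 and 9.84 in DMSO. In each line all drug-treated arrays lay above all DMSO arrays.

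The upstream sequences of TYR, TYRP1 and SLC24A5 are shown because these pigment genes had some of the widest gaps toward A2058 and hold the E-box that MITF is known to bind. They cover the 170 bases before the RefSeq start site on GRCh38.p14, at chr11:89177705-89177874, chr9:12693215-12693384 and chr15:48120820-48120989, all on the plus strand. Capitals mark each match to CATGTG on both strands, the other strand reading CACATG.

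TYR: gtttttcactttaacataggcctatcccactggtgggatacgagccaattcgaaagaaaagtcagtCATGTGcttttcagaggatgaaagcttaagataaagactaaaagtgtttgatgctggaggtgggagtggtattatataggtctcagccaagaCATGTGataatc
TYRP1: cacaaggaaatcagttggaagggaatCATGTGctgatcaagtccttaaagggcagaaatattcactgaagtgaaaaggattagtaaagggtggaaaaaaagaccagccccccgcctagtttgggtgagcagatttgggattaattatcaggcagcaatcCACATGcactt
SLC24A5: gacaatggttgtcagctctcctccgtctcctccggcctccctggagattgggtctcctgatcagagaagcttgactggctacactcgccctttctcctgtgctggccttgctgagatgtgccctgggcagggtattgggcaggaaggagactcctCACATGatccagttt

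In the same window as above, this E-box was found in 8 of the 14 pigment genes with a promoter (57.1%) and in 1174 of 14230 promoters over all genes (8.25%). Among 2-fold gaps under the drug it was found in 35 of 541 promoters of genes higher in A2058 (6.47%) and 46 of 487 higher in A375 (9.45%).

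PMEL, which forms the fibrils of the melanosome, read 10.88, 10.89 and 10.86 in drug-treated A2058 and 5.18, 5.0 and 5.02 in drug-treated A375. In DMSO it read 8.52, 8.40 and 8.43 in A2058 and 5.03, 4.92 and 5.03 in A375. A375 stayed at the low end in both conditions, and the gap was -5.80 (SE 0.0553) under the drug and -3.46 in DMSO. TYRP1, an enzyme of melanin synthesis, read 9.31, 9.35 and 9.32 in drug-treated A2058 and 5.28, 5.34 and 5.28 in drug-treated A375, with gaps of -4.03 (SE 0.134) and -1.15. MLANA, a melanosomal antigen, read 7.12, 7.0 and 7.13 against 4.59, 4.52 and 4.52 under the drug. In DMSO its values were 4.68, 4.78 and 4.79 in A2058 and 4.42, 4.45 and 4.45 in A375, and the gap was -2.54 (SE 0.0470) against -0.31. For these 3 genes the drug-treated A2058 arrays were the high group. SYTL5, a synaptotagmin-like protein, was higher in A375 by 5.67 in DMSO and 0.63 under the drug.

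The regulators of the melanocyte and neural crest lineage split evenly, with 6 of 17 called higher in each line and a median gap of 0.04. TFAP2B (4.25), SOX5 (1.90) and NGFR (1.62) were higher in A375, and TFAP2A (-2.83), LEF1 (-2.78) and the endothelin receptor EDNRB (-1.64) in A2058. The paralogues TFAP2A and TFAP2B were thus each high in 1 line, in DMSO too (-3.38 and 4.88). NGFR, a neurotrophin receptor that marks the neural crest-like state, read 9.83, 9.82 and 9.95 in drug-treated A375 and 8.23, 8.20 and 8.30 in drug-treated A2058. The DMSO arrays gave 6.63, 6.61 and 6.53 in A375 and 8.01, 8.21 and 8.01 in A2058. The order of the lines was reversed without overlap, from a gap of -1.49 to 1.62 (SE 0.0602). SOX9 (-0.09) and SOX10 (-0.10) were not called under the drug.

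Genes of the undifferentiated melanoma state did not sort to 1 line: 15 of 27 were called higher in A375 and 10 in A2058, with a median gap of 0.29 (-0.01 in DMSO). TGFBI (4.24), the guidance cue SLIT2 (3.45) and the matrix glycoprotein THBS1 (1.98) were higher in A375. FN1, which encodes fibronectin (-1.84), and the proteases MMP1 (-1.70) and MMP14 (-1.09) were higher in A2058. The receptor AXL, often used as a marker of this state, had a gap of 0.32 under the drug and -0.36 in DMSO. Of 12 regulators of epithelial-mesenchymal transition and cadherins, 4 were called in each direction (66.7%). SNAI1 was higher in A375 (1.62, and 0.85 in DMSO) and its paralogue SNAI2 in A2058 (-1.15 and -1.51).

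The direct output of the ERK cascade was divided too, with 11 of 27 genes called higher in A375 and 8 in A2058 and a median gap of 0.08 (0.19 in DMSO). The median level of the list was 6.95 in A375 and 7.11 in A2058 under the drug, against 8.77 and 8.85 in DMSO. DUSP6, the phosphatase that inactivates ERK, read 8.48, 8.54 and 8.56 in drug-treated A375 and 7.15, 7.0 and 7.19 in drug-treated A2058. In DMSO it read 10.19, 10.26 and 10.19 against 9.67, 9.75 and 9.80. All drug-treated arrays lay below all DMSO arrays, and the gap between the lines was 1.41 (SE 0.0546) against 0.48. SPRY4, another feedback inhibitor, had a narrower gap under the drug, 0.70 against 1.61. The transcription factor ETV4 had gaps of 1.12 and 0.66, its relative ETV5 of -0.24 and -0.85, and the cyclin gene CCND1 of 0.60 and 0.09. MYC was higher in A2058 in both conditions (-2.33 and -1.92). The pseudokinase genes TRIB2 (-2.88 and -0.01) and TRIB1 (-1.28 and 0.05) were higher in A2058 under the drug. Among 11 measured RAS, RAF, MEK and ERK kinases and regulators 5 and 3 were called, the widest being ARAF at 0.71. BRAF was not among the genes with a probe set of 1 symbol and was not analysed here.

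Receptor tyrosine kinases and their ligands showed different members in the 2 lines, 11 of 37 called higher in A375 and 14 in A2058 (67.6% called, median gap -0.06). KIT, the stem cell factor receptor, read 7.49, 7.57 and 7.54 in drug-treated A2058, whereas the other 9 arrays lay between 4.32 and 4.60. The gap was -3.15 (SE 0.0469, 8.9-fold) under vemurafenib and -0.18 in DMSO. MERTK, a receptor of the TAM family, was the mirror case: it read 6.27, 6.81 and 6.73 in drug-treated A375 against 4.71, 4.56 and 4.75 in drug-treated A2058, with gaps of 1.93 (SE 0.110) and 0.00. EGFR was higher in A375 by a like amount in both conditions (1.38 and 1.41, difference not called, adjusted p = 0.934, limma). PDGFRB had gaps of 1.24 and 0.84, and the ephrin receptor EPHA2 of 1.34 and 0.62. The ligand PDGFD (-2.83) and the orphan receptor ROR1 (-1.85) were higher in A2058, and ERBB3 (0.08) was not called.

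Downstream, the PI3K and AKT pathway had 8 of 18 genes called in each direction. The regulatory subunits were opposed: PIK3R1 was higher in A375 (0.89, and -0.83 in DMSO) and PIK3R3 in A2058 (-1.11, and 0.53 in DMSO). The catalytic subunit PIK3CB (-1.37) and the AKT phosphatase PHLPP1 (-1.40) were higher in A2058. Of 22 FOXO target genes 7 were called higher in A375 and 9 in A2058. FBXO32, a ubiquitin ligase of muscle atrophy and a FOXO target, read 9.01, 8.85 and 8.91 in drug-treated A2058 and 5.98, 6.20 and 6.35 in drug-treated A375. In DMSO A375 was the higher line, at 8.68, 8.66 and 8.60 against 7.79, 7.73 and 7.92. The gap turned from 0.83 to -2.74 (SE 0.0837). The antioxidant enzyme SOD2, which is also an NF-kappaB target, was higher in A375 in both conditions (2.80 and 2.10).

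Cell cycle genes were higher in A2058. Of 39 genes of DNA replication and the G1/S transition, 33 were called higher in A2058 and 1, MCM2, in A375 (0.23). The median gap was -0.68 under vemurafenib and -0.63 in DMSO. CCNE2, a cyclin that activates CDK2, read 9.09, 9.04 and 8.89 in drug-treated A2058 and 6.50, 6.81 and 6.89 in drug-treated A375. Its gap of -2.27 (SE 0.0968) was not distinguished from -2.05 in DMSO (adjusted p of the difference 0.282, limma). CDK2 itself had a gap of -2.57 against -1.53. Of 39 mitotic genes 32 were called higher in A2058 and 1, CDC20, in A375 (0.14), a call that was lost in some of the alternatives. Here the gap was narrower under the drug: the median was -0.44 against -0.76 in DMSO, and the difference of the gaps was called toward A375 for 26 and toward A2058 for none. The median level of the mitotic list was 8.71 in drug-treated A375 and 9.17 in drug-treated A2058. In DMSO it was 8.34 and 9.09, so neither line had a lower median under the drug. CDK1, the mitotic kinase, had gaps of -0.95 and -1.66, and MKI67, a marker of cycling cells, of -0.22 and -0.61. The checkpoint kinase BUB1 had gaps of -1.02 and -1.37, a difference (0.35, adjusted p = 0.0492, limma) that lost its call with the replicate block (0.0852), with median centring (0.0825) and in 9 fits that left out 1 array.

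Of 15 D cyclins, CDKs and CDK inhibitors, 3 were called higher in A375 and 7 in A2058. The inhibitor CDKN1A (1.07 and 0.47) and RB1 (1.75 and 1.72) were higher in A375, and CDKN2A in A2058 (-0.61 and -1.02). Among p53 targets 14 of 21 were called higher in A375 and 4 in A2058, with a median gap of 0.46 (0.22 in DMSO). DDB2, a DNA damage sensor (1.75), the death receptor FAS (1.23) and the metabolic regulator TIGAR (1.18) led those in A375, and TP53INP1 (-2.22), GDF15 (-1.28) and ZMAT3 (-0.80) those in A2058. In the BCL2 family and caspases 8 of 23 were called higher in A375 and 6 in A2058 (60.9%). BCL2L11, the death activator BIM, was higher in A2058 (-1.04, and -0.29 in DMSO), and TNFSF10, the death ligand TRAIL, in A375 (0.85 and -0.07). Both gaps were thus wider under the drug, in opposite directions.

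Cholesterol synthesis genes were higher in A2058 as a group. Of 21 measured genes 19 were called higher in A2058, and 2, SREBF1 and TM7SF2, in A375 (0.22 and 0.39). The median gap was -0.78 under the drug and -0.23 in DMSO, and the difference of the gaps was called toward A2058 for 13 and toward A375 for none. CYP51A1, which demethylates lanosterol, read 9.99, 10.02 and 10.01 in drug-treated A2058 and 7.41, 7.53 and 7.74 in drug-treated A375. Its gap was -2.44 (SE 0.0680), against -0.97 in DMSO. HMGCS1, which makes the precursor of mevalonate, had gaps of -1.80 and -1.37, and the fatty acid desaturase SCD of -1.77 and -0.43.

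Other metabolic lists were less one-sided. In glycolysis 5 of 21 genes were called higher in A375 and 7 in A2058 (57.1%, against 46.9% of all genes), with a median gap of -0.06 (0.11 in DMSO). Of 22 hypoxia inducible genes 3 and 9 were called (54.5%), with a median of -0.10 (0.16 in DMSO). PDK1, which restrains pyruvate oxidation and stands in both lists, had a gap of -1.21 under the drug and 0.17 in DMSO. VEGFA, the vascular growth factor, was higher in A375 by 1.00 under the drug, with a gap of -0.37 in DMSO. Of 30 genes of oxidative phosphorylation 4 and 10 were called (46.7%), near the 46.9% of all genes, and most gaps were well under 2-fold. Their coactivator PPARGC1A was the exception, at 8.77, 8.72 and 8.61 in drug-treated A2058 against 5.16, 4.98 and 5.20 in drug-treated A375, with gaps of -3.58 (SE 0.0637) and -2.66. Ribosome biogenesis genes were higher in A375, with 24 of 34 called there and 2 in A2058 and a median gap of 0.51 (0.32 in DMSO). RRP12, a ribosome export factor, had the widest, 1.91 and 1.45. In the ATF4 and unfolded protein response list 11 of 33 were called in each direction, and without replicate 1 of A375 vemurafenib 16 were called higher in A375. The cystine transporter SLC7A11 (-2.42) and the amino acid transporter SLC7A5 (-2.0) were higher in A2058. Of 39 lysosomal and autophagy genes 9 and 19 were called (71.8%), ASAH1, an acid ceramidase, having the widest gap toward A2058 (-1.24).

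**Figure D3:**
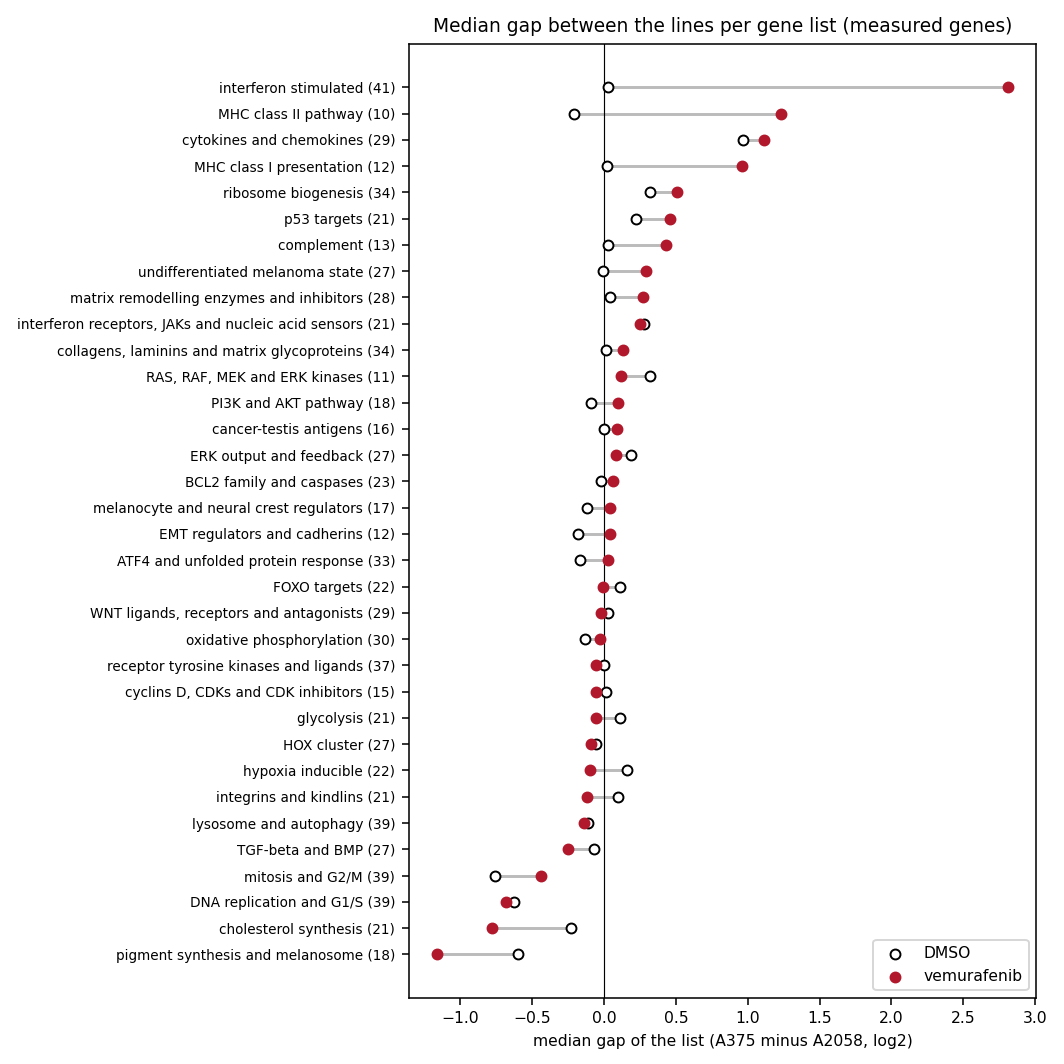
Median gap of each of 34 gene lists (horizontal axis, A375 minus A2058, log2), with filled points for vemurafenib and open points for DMSO. The interferon list moves from 0.03 in DMSO to 2.81 under vemurafenib, the class I and class II presentation lists from 0.02 and -0.21 to 0.96 and 1.23, and the cholesterol list from -0.23 to -0.78.

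Genes of the matrix and of adhesion differed strongly one by one. Of 34 collagens, laminins and matrix glycoproteins 16 were called higher in A375 and 9 in A2058. COL5A2, a fibrillar collagen chain, had a gap of 3.74 against 1.44 in DMSO, and the laminin chain LAMB3 of 2.48 and 1.62. THBS1 read 12.11, 12.29 and 12.25 in drug-treated A375 and 10.26, 10.29 and 10.16 in drug-treated A2058, whereas in DMSO A2058 was higher (10.99, 11.01 and 10.98 against 10.38, 10.30 and 10.38). Its gap turned from -0.64 to 1.98 (SE 0.0532). Its paralogue THBS2 was higher in A2058 in both conditions (-4.26 and -4.99), as were SPP1, which encodes osteopontin (-4.18 and -3.92), and LAMA1 (-3.32 and -3.29).

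Of 28 matrix remodelling enzymes and inhibitors 16 were called higher in A375 and 7 in A2058, led by ADAMTS1 (2.35), ADAM12 (1.81) and LOXL3 (1.77) in A375. MMP1, the interstitial collagenase, read 9.76, 9.72 and 9.69 in drug-treated A2058 and 7.82, 8.15 and 8.11 in drug-treated A375. In DMSO the lines were much farther apart, with means of 12.12 in A2058 and 5.95 in A375, and the gap of -6.16 there compares with -1.70 (SE 0.0802) under the drug. Among 21 integrins and kindlins 7 and 10 were called (81.0%). The collagen-binding chains ITGA2 (2.25) and ITGA11 (2.14, and 0.10 in DMSO) were higher in A375, and ITGB5 in A2058 (-1.61, and 0.06 in DMSO).

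Of 27 TGF-beta and BMP genes 7 were called higher in A375 and 14 in A2058, with a median gap of -0.25 (-0.07 in DMSO). The activin subunit INHBA (1.63 and 3.60) and its antagonist FST (1.05 and 3.35) had far wider gaps in DMSO. Among 29 WNT genes 6 and 8 were called (48.3%), a share near the 46.9% of all genes, and 7 and 12 without replicate 1 of A375 vemurafenib. DKK1, a secreted WNT antagonist, read 8.16, 8.44 and 8.55 in drug-treated A375 and 6.82, 6.77 and 6.83 in drug-treated A2058. In DMSO the order was the opposite, 6.52, 6.27 and 6.33 against 9.22, 9.11 and 9.17, and the gap turned from -2.80 to 1.58 (SE 0.0886). WNT5A was higher in A375 in both conditions (1.53 and 2.12). LEF1, a transcription factor of the pathway, read 6.81, 6.98 and 6.92 in drug-treated A375 and 9.65, 9.72 and 9.68 in drug-treated A2058, with gaps of -2.78 (SE 0.0474) and -0.82.

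The HOX cluster had 3 of 27 genes called higher in A375 and 10 in A2058 (48.1%, near the 46.9% of all genes), the latter 15 without replicate 1 of A375 vemurafenib. HOXB9 (-1.07) had the widest gap. Of 16 cancer-testis antigens, whose family members share probes, 8 were called higher in A375 and 3 in A2058, and 6 and 4 without replicate 1 of A375 vemurafenib. MAGEA4 was 45.8-fold higher in A375 under the drug and 51.5-fold in DMSO, MAGEC2 had gaps of 3.92 and 3.70, and PAGE5 of 3.0 and 3.02. For this list the difference of the gaps was called for 1 of 16, PRAME (-0.60 against -0.12). The difference for MAGEC2 (0.22, adjusted p = 0.101, limma) was called without replicate 1 of A375 vemurafenib (0.30, adjusted p = 0.00448), with quantile normalization (adjusted p = 0.0183) and with array weights (0.00563).

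The reversed class held 36 genes higher in A375 and 29 higher in A2058 under the drug. In 13 of the 65 the gap was at least 2-fold in both conditions, and in 34 the gap in DMSO was under 0.5. The widest differences toward A375 were those of TCN1, IFI44L, DKK1, ANK3 and F2RL2. TCN1, a vitamin B12 binding protein, read 10.81, 10.89 and 10.91 in drug-treated A375 and 6.32, 6.37 and 6.36 in drug-treated A2058. With DMSO the values were 5.86, 5.79 and 5.96 in A375 and 7.01, 6.91 and 7.04 in A2058. Its gap turned from -1.12 to 4.52 (SE 0.0515), a difference of 5.64 (adjusted p = 1.39e-13, limma). ANK3, a membrane anchor protein, had gaps of -0.27 in DMSO and 3.84 under the drug, and the thrombin receptor family member F2RL2 of -0.31 and 3.39. Toward A2058 they were FBXO32, AKAP12, MYO1D, GPRC5A and MYADM. AKAP12, a scaffold for protein kinase A, read 7.62, 7.58 and 7.55 in drug-treated A2058 and 6.45, 6.36 and 6.38 in drug-treated A375, but 7.12, 7.02 and 7.02 against 9.34, 9.41 and 9.35 in DMSO. Its gap was -1.19 (SE 0.0437) under the drug and 2.31 in DMSO. MYO1D, GPRC5A and MYADM had gaps between -1.83 and -1.32 under the drug and between 1.22 and 1.62 in DMSO.

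In the absent class, the widest differences toward A375 were those of IFIT1, XAF1, C1S, RSAD2 and TAC1, of which IFIT1, XAF1 and RSAD2 are interferon-stimulated genes. TAC1, the precursor of substance P, had a gap of 4.27 (SE 0.106) under the drug and 0.02 in DMSO. Toward A2058 they were SAT1, KCNJ13, KIT, TRIB2 and DCLK1. SAT1, the rate-limiting enzyme of polyamine breakdown, read 9.54, 9.54 and 9.47 in drug-treated A2058 and 5.62, 5.91 and 6.09 in drug-treated A375. In DMSO it read 8.73, 8.51 and 8.69 in A2058 and 8.49, 8.55 and 8.55 in A375. The drug-treated A375 arrays were the low group, and the gap was -3.65 (SE 0.0959, 12.5-fold) against -0.12. The potassium channel KCNJ13 had gaps of -3.01 and -0.02, and the kinase DCLK1 of -2.79 and -0.25.

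**Figure D4:**
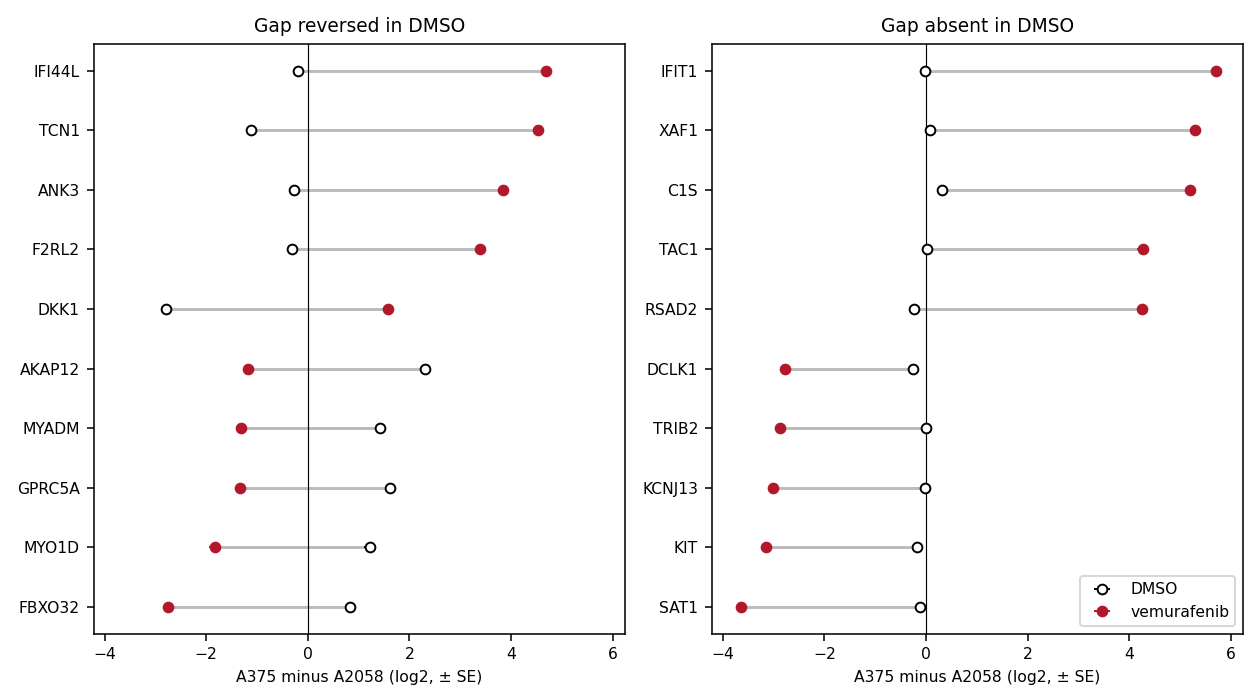
Gap in DMSO (open points) and under vemurafenib (filled points) for the named genes of the reversed and absent classes (horizontal axis, A375 minus A2058, log2), with SE bars that are smaller than the markers. Lines between the points of the reversed genes cross 0, and those of the absent genes start near 0.

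The smaller class was led toward A375 by OAS2, UBD, OAS1, SAMHD1 and SELE, and toward A2058 by PDE3A, TYRP1, IGFBP5, IGSF3 and PMEL. SAMHD1, which degrades deoxynucleotides, was 16.8-fold higher in A375 under the drug and 1.48-fold in DMSO. SELE, an adhesion molecule of activated endothelium, was 14.3-fold and 1.31-fold higher. The phosphodiesterase PDE3A was 25.9-fold higher in A2058 under the drug and 2.84-fold in DMSO. In the larger class, whose gaps were wider in DMSO, LOXL4, HAPLN1 and IL1A led toward A375 and MMP1, GASK1B and MOXD1 toward A2058. LOXL4, an enzyme that crosslinks collagen, read 6.23, 6.35 and 6.34 in drug-treated A375 and 5.19, 5.25 and 5.31 in drug-treated A2058. Its DMSO values were 10.99, 10.98 and 10.95 in A375 and 5.15, 5.23 and 5.06 in A2058. The gap was 1.05 (SE 0.0524) under the drug and 5.83 in DMSO. The hyaluronan link protein HAPLN1 had gaps of 2.35 and 6.03. For 199 of the 1330 genes the lower line lay below 4.95, the 30th percentile, where low signals are compressed and a gap is understated.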

How the data were processed

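RNA of A375 and A2058 cells was hybridised to 12 Affymetrix Human Gene 1.0 ST arrays, in 4 groups of 3 taken from the sample titles. The authors deposited 1 log2 value per array for each of 32321 probe sets, between 3.24 and 13.08. Per the submitters' processing notes, R 3.0.1 and affy were used. Which background correction and summary were applied is not given in the sources used here. Array quartiles nearly coincided, so the deposited values were not scaled again, and a change shared by all genes would not be seen. Arrays have no read depth, and their number limits the precision.

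The platform annotation names 1 gene for 19158 probe sets, more than 1 for 1388 and no gene for 11775. Only the first kind was used, with symbols brought up to date by Entrez number in the RefSeq table of GRCh38.p14 (19128 matched). Where a gene had several probe sets (637 genes), that of the highest mean over all arrays stood for it, leaving 18404 genes. Promoter sequences from RefSeq matched 14230 of these genes.

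A limma model (version 3.58.1, R 4.3.3) of 4 group means was fitted to all 12 arrays, with residual degrees of freedom of 8 and prior ones of 3.98. It gave the contrasts A375 minus A2058 under vemurafenib, the same in DMSO, and their difference. The 2 gaps share no arrays. Tests were two-sided, with Benjamini-Hochberg adjustment over all genes. On simulated data with 50 genes changed at each size, the gap under vemurafenib recovered 50% of those at a log2 change of 0.25, 90% at 0.5 and 100% at 1 and at 2, and 9 unchanged genes were called (5.03% of calls). The difference of the gaps recovered 26%, 68%, 98% and 98%, and 8 unchanged genes were called (5.23%). In the simulation every group had the same SD for a gene, and far fewer genes were changed than were called in the data. The rates may therefore not carry over to the arrays.

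The members and gene lists were chosen with earlier results of these data known, and a list's count and median are given as descriptions, with no test of the list. Genes were named by 1 rule among called genes whose lines do not overlap on the arrays. It takes the 8 largest gaps of each sign, the 5 largest differences of gaps of each sign in the reversed, absent and smaller classes and 3 in the larger class, and up to 3 called members of each sign per list. It adds a fixed set (DUSP6, SPRY4, ETV4, ETV5, CCND1, BRAF, MITF, SOX10, SOX9, TYR, MLANA, PMEL, TYRP1, DCT, AXL, EGFR, ERBB3, NGFR, KIT, PDGFRB, IFIT1, CDKN2A and MKI67, with some that are not reported here), and list members against the majority where they number 5 or fewer. The genes IFNB1, IFNL1, HERC5, HLA-DQA1, HLA-DQB1, PTPRC, CD3E, S100B and those of the last part of the text were named after their values were seen. Genes of the Y chromosome and XIST were not named. Alternatives were other normalizations, array weights, a filter on dim genes, the mean of probe sets, other limits for an absent gap, the replicate number as a block and each array left out. A fit of only the 6 arrays of a condition, an intensity trend with a robust prior and limma's treat test were also run. Same-numbered arrays of the drug-treated groups did not deviate together.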

Additional observations from a re-analysis of the deposited data

Results flagged for a closer look

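The gap between the lines differed between vemurafenib and DMSO at many genes, as tested by the difference of the gaps in limma with Benjamini-Hochberg adjustment. It was called toward A375 at 2416 genes and toward A2058 at 3018. The values below are that difference on the log2 scale, for genes named by class or by the fixed set.

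Among interferon and complement genes it was widest toward A375, for IFIT1 (5.72), XAF1 (5.22), OAS2 (4.91), C1S (4.90), IFI44L (4.88), RSAD2 (4.49) and OAS1 (4.14), with UBD (4.40) and SAMHD1 (3.51). Secreted and surface proteins toward A375 were TCN1 (5.64), DKK1 (4.38), TAC1 (4.24), F2RL2 (3.70), SELE (3.45) and NGFR (3.11), with the membrane anchor ANK3 (4.12). For MMP1 (4.47), GASK1B (2.58) and MOXD1 (2.0) a positive value means that a gap toward A2058 was narrower under the drug. Smaller positive differences were found for DUSP6 (0.94), AXL (0.69), ETV5 (0.61), CCND1 (0.51), ETV4 (0.46), PDGFRB (0.40) and MKI67 (0.39). For ETV5 and MKI67 too, a gap toward A2058 was narrower under the drug.

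Toward A2058 the pigment genes TYRP1 (-2.88), PMEL (-2.35) and MLANA (-2.23) differed, and TYR only by -0.45. The lineage factor SOX10 differed by -0.42, but its gap under the drug was itself not called. Enzymes, receptors and signalling genes in this direction were FBXO32 (-3.58), SAT1 (-3.53), AKAP12 (-3.50), PDE3A (-3.19), KCNJ13 (-2.99), KIT (-2.97), GPRC5A (-2.95), TRIB2 (-2.88) and DCLK1 (-2.54). Others were MYO1D (-3.05), IGFBP5 (-2.75), MYADM (-2.75), IGSF3 (-2.38) and SPRY4 (-0.91). For LOXL4 (-4.77), HAPLN1 (-3.68), IL1A (-3.55) and SPRY4 (-0.91) a negative value means that a gap toward A375 was narrower under the drug.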

How the results depend on the processing

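Most alternatives were run for the counts over all genes, 10 of the gene lists and the named genes, and no called value of a named gene changed sign. The other lists were rerun only without replicate 1 of A375 vemurafenib, and list medians in DMSO were not rerun. Limma's treat test was run for the gene counts under vemurafenib alone. Other limits for an absent gap were run for the class counts alone. The fit of only the 6 arrays of a condition gave no difference of the gaps and no classes. When a gap had to exceed 2-fold by limma's treat test, 869 genes were called, 420 higher in A375 and 449 in A2058. With limits of 0.25 in place of 0.5 log2, 74 gaps counted as absent in DMSO, and with limits of 1, 508 were absent and 257 smaller. With the replicate number as a block 8417 genes were called under vemurafenib and 5160 for the difference of the gaps. Same-numbered drug-treated arrays deviated with correlations of -0.294, 0.099 and -0.283. With so few arrays a group, these values cannot settle whether the numbers pair arrays. When only the 6 arrays of a condition were fitted, 7830 genes were called under vemurafenib and 9187 in DMSO. The fit of all 12 arrays gave 8636 and 8541, so which condition had more calls depends on the fit. Leaving out each array in turn gave 8013 to 9679 called genes under vemurafenib, 1317 to 1347 with a 2-fold gap, 7826 to 9361 in DMSO and 4892 to 6638 for the difference of the gaps. In these fits 186 to 202 gaps were absent, 540 to 618 smaller, 59 to 75 reversed and 129 to 158 larger in DMSO. The interferon count stayed at 40 or 41 of 41. Among 8964 values of 230 named genes under alternatives, 8798 kept their side of the threshold, 130 lost their call and 36 gained one. The gap under vemurafenib lost its call for COX4I1 and CDC20 and gained one for SOX10, SOX9 and ERBB3 in at least 1 alternative. The difference of the gaps for TYR (-0.45, adjusted p = 0.0428) lost its call in 10 fits that leave out an array. Signal over background limits the gaps of dim genes: 13537 genes had a group mean above 4.95.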

Other observations

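Some gaps between the lines were present in DMSO and narrow under vemurafenib. Of the 1173 genes with a 2-fold gap in DMSO, 146 (12.4%) had a called difference of the gaps and a gap under vemurafenib whose 95% interval lay within 0.5 log2 of 0. Of these 96 had been higher in A375 and 50 in A2058. The genes named here are the 6 of each sign with the widest gap in DMSO and were chosen after their values were seen. A2M, a protease inhibitor of plasma, had means of 9.21 in A375 and 6.03 in A2058 with DMSO, but 8.87 and 8.73 under the drug. ANGPTL4, a lipase inhibitor, had 9.39 and 6.59 in DMSO and 5.65 and 5.49 under the drug. VGF, a neuropeptide precursor, had 9.08 and 6.14 in DMSO and 6.23 and 6.20 under the drug. TAGLN3, FHIP1A and SLC14A1 had DMSO gaps of 3.08, 3.0 and 2.76 and gaps of 0.06, 0.28 and 0.26 under the drug.

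Toward A2058, OTULINL had means of 4.66 in A375 and 8.46 in A2058 with DMSO, and 4.48 and 4.81 under the drug. NIBAN1, a stress-responsive gene, had 5.84 and 8.94 in DMSO and 8.71 and 8.81 under the drug. LUM, the matrix proteoglycan lumican, had 4.22 and 6.88 in DMSO and 6.37 and 6.47 under the drug. EVI2B, MILR1 and PDE8B had DMSO gaps of -2.86, -2.83 and -2.23 and gaps of -0.25, -0.34 and -0.21 under the drug. The same limit holds for OTULINL and MILR1 (4.31 and 4.65), whose drug-treated means both lay below 4.95. For PDE8B (4.85 and 5.06) the lower line did. The line whose mean lay farther from its own DMSO mean thus differed from gene to gene: it was A2058 for A2M and OTULINL, and A375 for VGF, ANGPTL4, NIBAN1 and LUM.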
